A study of Bos taurus with 17 samples.

Results

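The Normande milk miRNome comprised the microRNAs counted in whole milk of 8 Normande cows, out of 17 libraries in all, and was taken as every library whose breed label is Normande, named N1 to N8. Normande is a French dual-purpose dairy breed, and the other 9 libraries came from Holstein cows. All cows were primiparous, at 2 months of lactation, kept on the same farm and diet. The Normande group held 3 cows aged 2 years and 5 aged 3 years. The Holstein group held 4 aged 2 years and 5 aged 3 years. The sample labels give no age per cow, so cows were not divided by age. The paper lists N1, N2 and N3 as the Normande cows aged 2 years and N4 to N8 as those aged 3 years. Total RNA was isolated from unfractionated milk of the morning milking, so that RNA of milk cells, fat globules and vesicles was measured together, and 1 TruSeq small RNA library was made per cow.

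MicroRNAs are short RNAs cut from the arms of a hairpin precursor, and the arm loaded into an Argonaute protein guides the repression of messenger RNAs that it pairs with. The arm from the 5′ side of the hairpin is named 5p and that from the 3′ side 3p, and usually the arm that is not loaded is degraded. Milk is rich in microRNAs, many of them packed in extracellular vesicles and fat globules shed by the mammary epithelium, and these protect the RNA from ribonucleases.

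The 8 libraries held 73345114 counted reads in all. Library totals lay between 867772 in N3 and 18776254 in N5, a 21.6-fold range in depth, so that a single read weighed 0.0533 to 1.15 RPM (reads counted for the entry, scaled to a library total of 1000000). A count of 0 allows a level of up to 3 reads, which is 0.160 RPM in N5 and 3.46 RPM in N3, for counting error only. No library was a copy of another, as the chi-square of each of the 28 pairs was 63.1 to 2144 times its degrees of freedom. Pearson's r of log2 levels over the entries at 100 RPM or more was 0.826 between N1 and N6, the least alike pair, and 0.978 between N4 and N6, with a median of 0.952. These are correlations across microRNAs, which are not independent replicates. N1 stood apart most, with the lowest mean r with the other libraries, 0.902.

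Of 2297 entries in the table, 2030 had at least 1 read in Normande milk. Of these, 708 were found in all 8 cows, and they held 99.95% of the reads. Another 349 were found in the milk of 1 cow only and held 1364 reads in all, with at most 28 reads each. The shallowest library, N3, held the fewest entries, 864, and the deepest, N5, the most, 1529, but the libraries between did not keep the order of depth: N1 held 1498 and the somewhat deeper N8 held 1352. When every library was thinned to 867772 reads, the libraries held 838 (N6) to 934 (N1) entries, and 1553 over the 8 cows. N1 thus held the most entries at equal depth, and N5 followed with 909.

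The reads were concentrated in few microRNAs. Over the summed reads, 5 entries held 50% of the reads, 44 held 90% and 216 held 99%. In single cows, 4 to 6 entries held 50% of the reads, and 33 (N6) to 64 (N1) held 90%. Abundance is given below as RPM over the reads summed over the 8 cows, and levels of single cows as RPM of the cow's own library. Mature microRNAs are of nearly the same length, so RPM was compared between entries with no length term. Differences between sequences in adapter ligation or amplification were not measured. Ranks, arm ratios and cluster ratios below are therefore those of reads and may differ from those of molecules.

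Milk of Normande cows was led by bta-miR-148a-3p, which is abundant in milk of many mammals and is known in human and mouse cells to repress the DNA methyltransferase gene DNMT1. Its abundance was 200029 RPM, with cow levels of 162045 RPM at the lowest (N5), 212084 at the median and 236748 at the highest (N3). It was the most abundant microRNA in 7 of 8 cows. N5 was the exception and lay below all others, which were at 210338 RPM or more. In N5 the leader was bta-miR-30a-5p, of a family known in human cells to repress the autophagy gene BECN1. Its abundance was 165078 RPM, with cow levels of 121920 RPM at the lowest (N1), 160612 at the median and 197656 at the highest (N5). The third place was taken in all 8 cows by bta-miR-22-3p, with an abundance of 79907 RPM and cow levels of 74695 (N1) to 87779 (N7) around a median of 80384. The levels of miR-22-3p were thus much closer together between cows than those of miR-30a-5p. These 3 microRNAs held 45.1% ± 2.37 of the reads of a cow (SD, n = 8), with 40.7% in N1 and 47.6% in N3 at the ends.

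**Figure D1:**
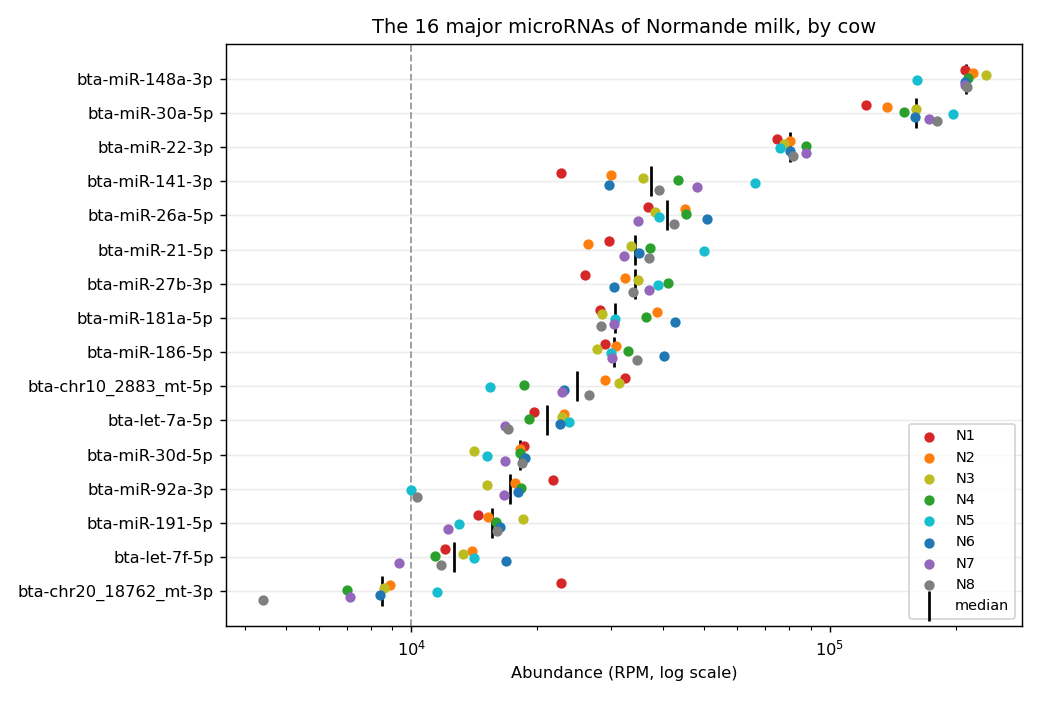
Level of the 16 entries at 10000 RPM or more in each Normande cow (points, RPM of the cow's library, log axis), with the median of the 8 cows as a black bar and 10000 RPM as a dashed line. bta-miR-148a-3p leads in every cow but N5, and bta-chr20_18762_mt-3p passes 10000 RPM in N1 and N5 only.

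In all, 16 microRNAs reached 10000 RPM, 10 from the 5p arm and 6 from the 3p arm, and are called major microRNAs here. After the 3 leaders came bta-miR-141-3p at 42527 RPM, a member of the miR-200 family that maintains epithelial identity by repressing ZEB1 and ZEB2. It was the least even of the annotated major microRNAs, with cow levels of 22770 RPM at the lowest (N1), 37472 at the median and 66236 at the highest (N5). bta-miR-26a-5p had 41502 RPM, with cow levels of 34846 (N7) to 50875 (N6). bta-miR-21-5p, found at high levels in many tissues and raised in many tumours, had 37463 RPM, with 49948 in N5 and at most 37230 in the other cows. N5 thus stood highest for miR-30a-5p, miR-141-3p and miR-21-5p, and lowest for miR-148a-3p.

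The next major microRNAs were bta-miR-27b-3p, a repressor of lipid metabolism genes such as PPARG in human and mouse cells, at 34225 RPM, and bta-miR-181a-5p, known from lymphocyte development in mice, at 32590 RPM. They were followed by bta-miR-186-5p at 32230 RPM, by the predicted entry bta-chr10_2883_mt-5p at 23442 RPM and by bta-let-7a-5p at 20693 RPM. The let-7 family is known for repressing growth genes and for its mutual repression with LIN28. bta-miR-30d-5p had 17393 RPM, bta-miR-92a-3p, of the miR-17-92 cluster, 15117 RPM, bta-miR-191-5p 14625 RPM and bta-let-7f-5p 13013 RPM. The last was the predicted entry bta-chr20_18762_mt-3p at 10673 RPM. Entries of the let-7, miR-30 and other families of nearly identical sequence can share reads in the counting, so their single values are less certain than their sums.

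The predicted entries among the major microRNAs differed in how evenly they were found. bta-chr10_2883_mt-5p was above 10000 RPM in all 8 cows, with 15437 RPM at the lowest (N5), 24815 at the median and 32394 at the highest (N1). bta-chr20_18762_mt-3p had 4403 RPM at the lowest (N8), 8506 at the median and 22768 at the highest (N1). It passed 10000 RPM in 2 cows only, N1 and N5, and its place among the major microRNAs rested on N1: without N1, 15 microRNAs reached 10000 RPM. Just outside the class were bta-miR-660-5p at 9575 RPM and bta-miR-423-5p at 9537 RPM, each above 10000 RPM in 4 cows. bta-miR-375-3p, known from pancreatic islets and neuroendocrine epithelia, passed it in 1 cow, N1. Over the 8 cows, 13 entries reached 10000 RPM in every library and 19 in at least 1.

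The order of neighbours was the same in all cows for some pairs and changed between cows for others. miR-148a-3p lay above miR-30a-5p in 7 of 8 cows. miR-30a-5p lay above miR-22-3p, and miR-22-3p above miR-141-3p, in 8 of 8 cows. miR-141-3p lay above miR-26a-5p in 2 of 8 cows only (N5 and N7), and miR-21-5p above miR-27b-3p in 4 of 8, but miR-26a-5p lay above miR-21-5p, and let-7a-5p above miR-30d-5p, in 7 of 8. From the fourth place to the sixteenth, the mean log2 ratio of neighbours was smaller than its SD between cows in 11 of 12 pairs. The exception was miR-191-5p above let-7f-5p. This sets the gap beside its spread and is no test of the order, which some of the 11 pairs kept in 7 of 8 cows. The same 9 entries were among the 10 leading ones of every cow, and 11 entries were so in at least 1 cow, since bta-chr10_2883_mt-5p had the remaining place in 6 cows and bta-let-7a-5p in 2.

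The 16 major microRNAs were 0.788% of the detected entries and held 78.1% of the summed reads. In single cows they held 78.3% ± 2.73 (SD, n = 8), with 72.1% at the lowest and 80.4% at the highest. The class of 1000 to 10000 RPM had 51 entries with 15.6% of the reads, and that of 100 to 1000 RPM had 160 entries with 5.51%. The class below 100 RPM held 88.8% of the entries, 1803 in number, and 0.873% of the reads. Of these, 1253 lay below 1 RPM, at 0.0283% of the reads. The make-up of the classes differed by source: bovine miRBase names made up 14 of the 16 major entries, 38 of the 51 in the next class and 68 of the 160 in the class of 100 to 1000 RPM, while predicted entries made up 2, 7 and 58 of them.

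The names of the entries give the source of each microRNA. Entries of bovine miRBase, the reference catalogue of microRNAs, numbered 692 and held 89.9% ± 3.50 of a cow's reads (SD, n = 8). Entries of RumimiR, a catalogue of ruminant microRNAs from published studies, numbered 408 and held 2.40% ± 0.554. The 895 entries that miRDeep2 predicted from these libraries, named by chromosome and locus, held 7.66% ± 2.98, and the 35 entries known from other species held 0.0283% ± 0.00546. Predicted entries were thus the most numerous and mostly rare, with 67 at 100 RPM or more, 180 found in all 8 cows (20.1%) and 232 in 1 cow. Of the bovine miRBase entries, 120 were at 100 RPM or more and 340 were found in all 8 cows (49.1%).

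N1 had the lowest bovine miRBase share and the highest predicted and RumimiR shares, whereas the share of other species was highest in N4 (0.0371%) and lowest in N8 (0.0221%), with 0.0269% in N1. Bovine miRBase entries held 82.6% of the reads at the lowest (N1), 90.3% at the median and 93.3% at the highest (N6). Predicted entries held 13.9% in N1, 9.24% in N2, 7.70% in N3, 4.82% in N4, 5.63% in N5, 4.75% in N6, 7.16% in N7 and 8.10% in N8. Library totals were 12021549 reads in N1 and 9249399 in N6, the cows with the highest and the lowest predicted share. The part of depth and of age in these shares was not tested. Without N1 and N2 the mean predicted share was 6.36% and the mean bovine miRBase share 91.5%. RumimiR entries of bovine origin had the same cows at the ends, with 2.48% in N1 and 1.05% in N6, and so did those of caprine origin, with 0.161% in N1 and 0.0413% in N6. Those of ovine origin had a smaller SD for their mean, at 0.885% ± 0.0929 (SD, n = 8) with 0.761% (N5) to 1.03% (N2).

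**Figure D2:**
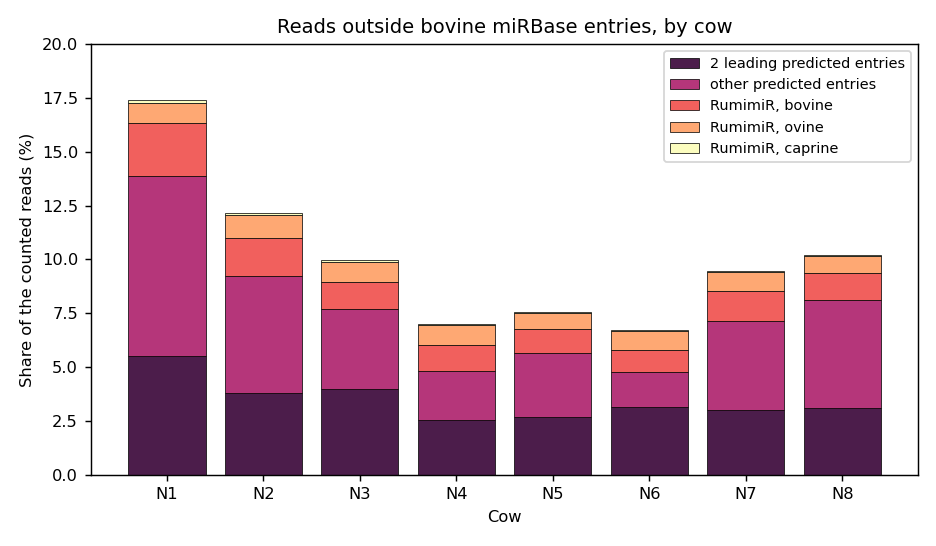
Share of the counted reads (percent) outside bovine miRBase in each Normande cow, stacked by source: the leading pair of predicted entries, the other predicted entries, and RumimiR entries of bovine, ovine and caprine origin. N1 is highest at 13.9% predicted reads and N6 lowest at 4.75%.

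Among RumimiR entries the 5 leading ones held 44.5% of the reads of their source. Rum-bta-00384 led with 2451 RPM and cow levels of 816 (N6) to 5231 (N1). Rum-bta-01414 followed with 2272 RPM and 1517 (N8) to 3532 (N6), then Rum-oar-02257 with 2038 RPM and 1774 (N5) to 2972 (N3). Rum-bta-00660 had 1961 RPM with 1138 (N6) to 3564 (N1), and Rum-oar-01413 had 1858 RPM with 1538 (N5) to 2462 (N2). The extremes thus lay in different cows: Rum-bta-00384 and Rum-bta-00660 were highest in N1 and lowest in N6, while Rum-bta-01414 was highest in N6.

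Predicted reads were more concentrated still. The leading pair, described above, held 44.3% of them and the 5 leading entries 58.8%. The next were bta-chr3_28995_mt-3p at 3797 RPM, bta-chr25_23463_mt-3p at 3789 RPM and bta-chr16_9999_mt-3p at 3585 RPM. The first of these had cow levels of 1003 RPM at the lowest (N6), 2780 at the median and 7267 at the highest (N8). bta-chr16_9999_mt-3p had 2143 RPM at the lowest (N8), 2892 at the median and 6991 at the highest (N1). N8 was thus the highest cow for one of these entries and the lowest for the other.

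bta-chr3_28995_mt-3p and bta-chr25_23463_mt-3p were near copies in the counts, with 278510 and 277872 reads and values within 5% of each other in every cow. Of 715 entries with at least 100 reads, 24 fell into 11 such sets, 17 of them predicted, 5 from RumimiR and 2 from bovine miRBase. The set with the most members joined 4 entries, bta-miR-11972-5p, bta-chr7_36686_mt-3p, bta-chr29_27847_mt-5p and Rum-bta-01641, at 558.1 to 567.6 RPM each. The entries after the first of each set held 0.783% of the counted reads. With each set counted once, the predicted share was 7.09% and the bovine miRBase share 90.5%. Whether such entries count the same reads was not tested.

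Of the entries named for other species, 1 reached 100 RPM, hsa-miR-30c-2-3p at 187 RPM, with cow levels of 145.5 (N5) to 287 (N4). It was followed by ocu-miR-141-5p at 16.4 RPM, mmu-miR-210-5p at 12.9 RPM, chi-miR-502b-5p at 7.92 RPM and hsa-miR-92a-1-5p at 7.72 RPM. These 5 entries held 84.7% of the reads of their source. All 5 carry the name of the arm opposite to a bovine miRBase entry. The miR-2284 and miR-2285 family, which is specific to ruminants and has many members, had 124 detected entries with 0.422% ± 0.0700 of the reads (SD, n = 8), and bta-miR-2284x-5p alone, at 2760 RPM, held 66.5% of the family.

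Arm use was then described. Both arms were listed for 59 of 671 bovine miRBase hairpins, and 36 of these pairs had at least 100 reads, 19 with the 5p arm ahead and 17 with the 3p arm ahead. Of the 29 pairs with at least 1000 reads, the 5p arm was ahead in 15 and the 3p arm in 14. The arm ahead was over 10-fold more abundant in 20 of the 29 and over 100-fold in 11, and the arms were within 4-fold in 5. In all 29 pairs the same arm was ahead in every cow. Over all bovine miRBase reads, 5p arms held 51.1% ± 2.34 (SD, n = 8), with 49.0% at the lowest (N7) and 55.3% at the highest (N5).

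The pairs farthest to the 3p arm were bta-miR-10174 with 13 reads of 5p and 69439 of 3p, bta-miR-23b with 13 and 49536, bta-miR-22 with 3156 and 5860801, bta-miR-1343 with 5 and 2586, and bta-miR-6120 with 5 and 2144. For miR-22, the third most abundant microRNA, the 5p arm was 0.0538% of the pair (95% Clopper-Pearson interval 0.0520 to 0.0557, counting error only). The pairs farthest to the 5p arm were bta-miR-149 with 2069 reads of 5p and 0 of 3p, bta-miR-30b with 367142 and 111, bta-miR-21 with 2747729 and 3364, bta-miR-2419 with 56445 and 139, and bta-let-7a with 1517722 and 6365. For miR-149 the 5p arm was at least 689.7-fold more abundant, against a floor of 3 reads over the 8 cows. In bta-miR-21 the minor arm was 0.122% of the pair (0.118 to 0.126) and in bta-let-7a 0.418% (0.407 to 0.428).

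The pairs nearest to equal were bta-miR-151, bta-miR-362, bta-miR-17, bta-miR-296 and bta-miR-1388. bta-miR-151 had a log2 ratio of 5p over 3p of -1.09 over the summed reads, with 268771 and 571539 reads. Its ratio was also the most even of the 13 pairs with at least 1000 reads in both arms, at -1.10 ± 0.16 (SD of log2, n = 8), with -1.23 in N1 and -0.76 in N2 at the ends. The SD of the log2 ratio over the 13 pairs had a median of 0.40 and reached 0.65 in bta-miR-425. bta-miR-362 had a log2 ratio of -1.11, bta-miR-17 of 1.50, bta-miR-296 of -1.83 and bta-miR-1388 of 1.85. The ratio of miR-362 came closest to equal arms in N6, at -0.21, and was farthest in N7, at -2.02.

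**Figure D3:**
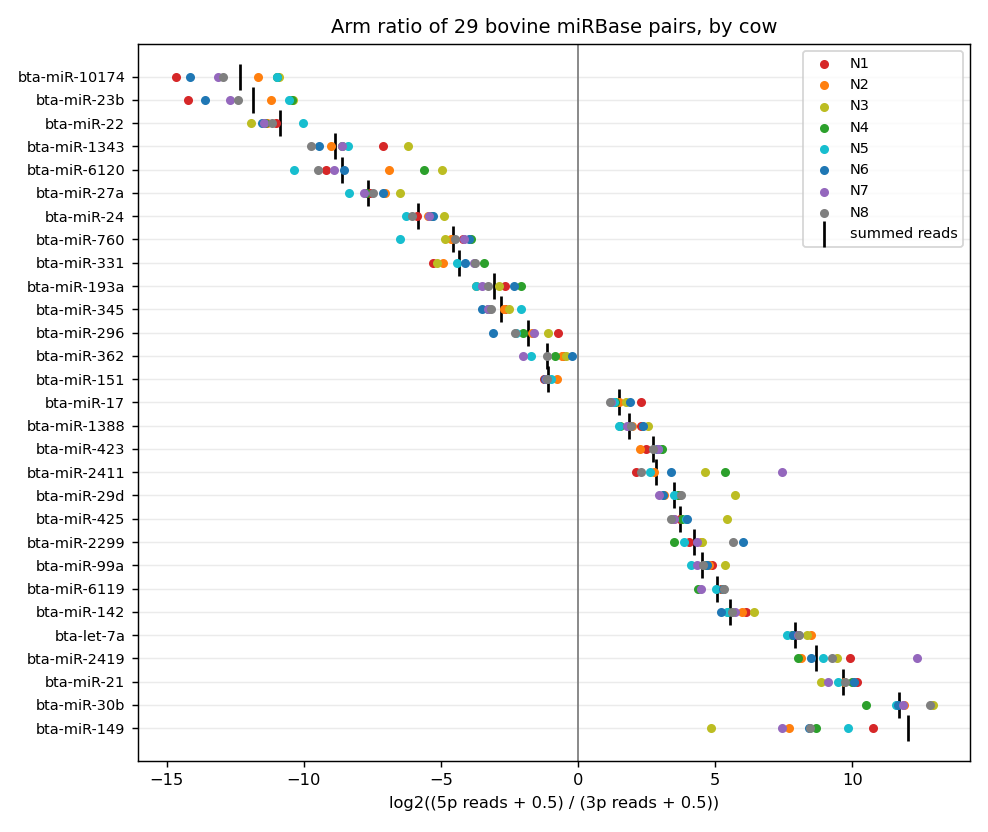
Log2 ratio of 5p over 3p reads (0.5 added to each count) of the 29 bovine miRBase pairs with at least 1000 reads, for each Normande cow (points) and over the summed reads (black bars), ordered by the ratio over the summed reads. No pair crosses 0 in any cow, and bta-miR-151 has the narrowest spread; for bta-miR-149, with 0 reads of 3p, the points depend on the added 0.5.

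Entries named for other species completed further hairpins, since 32 of them carry the opposite arm of a bovine entry. The bovine arm was ahead in 31 of the 32, and 23 of these pairs had at least 1000 reads. The exception was miR-431, with 1 read of the bovine arm and 5 of the other. ocu-miR-141-5p had 1205 reads against 3119121 of bta-miR-141-3p, and hsa-miR-92a-1-5p had 566 against 1108773 of bta-miR-92a-3p. mmu-miR-182-3p had 11 reads against 473871 of bta-miR-182-5p, whereas the arms of miR-30c-2 were within 5.94-fold and those of miR-502b, at 581 and 655 reads, within 1.13-fold. miR-30c-5p can also come from another hairpin with the same mature sequence, which the counts do not separate.

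Most predicted hairpins with both arms listed and at least 100 reads were one-sided in reads too. Whether loci with few or no star reads are true hairpins was not tested. miRDeep2 names the arm with more reads in its prediction mature (mt) and the other star (st). Of 803 predicted loci with reads, 25 had both arms listed and at least 100 reads, and the mature arm was ahead in 22. The median star share of these 25 was 0.476%, and mature arms held 98.7% of all predicted reads. bta-chr10_2883 had 1719369 reads of the mature arm and 1 of the star arm. The star arm was ahead in bta-chr23_22727 (71622 reads of star and 258 of mature), bta-chr16_10646 (2032 and 256) and bta-chr26_25218 (96 and 54). The star entry of bta-chr23_22727 was itself a near copy of bta-chr23_22404_mt-3p, which had 71828 reads. As the prediction and the counts come from the same libraries, that the mature arm leads is not independent of its name.

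Variation between cows was measured as the coefficient of variation (CV, the SD of the 8 library RPM values in percent of their mean) over the 227 entries at 100 RPM or more. The median CV was 31.2%, against 2.37% from counting error alone. It differed between sources, with medians of 62.5% for the 67 predicted entries, 35.9% for the 39 RumimiR entries and 21.5% for the 120 bovine miRBase entries. None of the 67 predicted entries had a CV under 20% and 54 had one over 50%, whereas 54 of the 120 bovine miRBase entries were under 20% and 14 over 50%. The same order was found within classes of abundance: the medians within 100 to 1000 RPM were 63.6%, 39.7% and 26.6%, and those at 1000 RPM or more were 58.1%, 26.2% and 17.6%, in the order predicted, RumimiR and bovine miRBase. No test was made between sources, because entries of one library are not independent. The 8 cows are of both ages, so the CV takes in any difference with age.

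**Figure D4:**
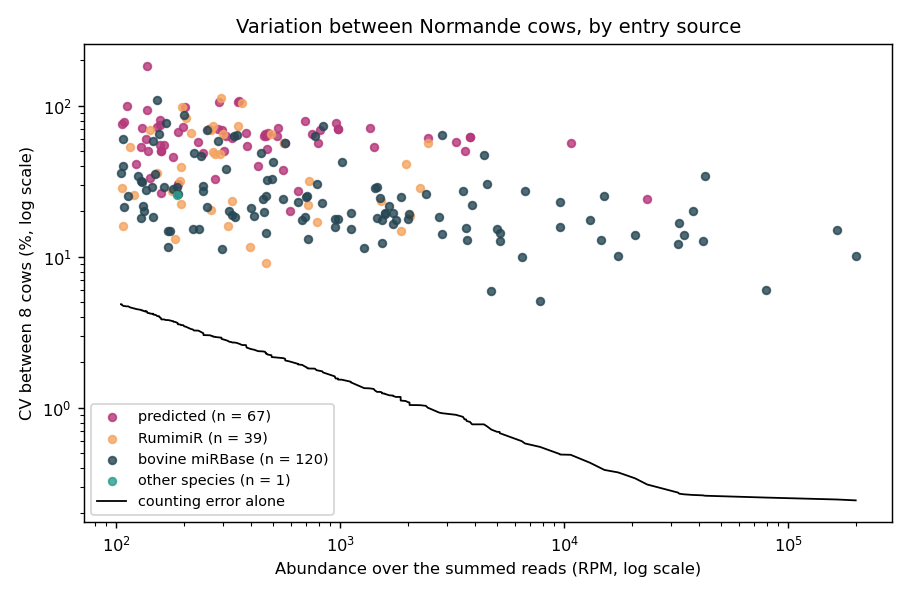
CV between the 8 Normande cows (percent, log axis) against abundance over the summed reads (RPM, log axis) for 227 entries at 100 RPM or more, coloured by source, with the running median of the CV that counting error alone gives as a line. The predicted entries lie highest, with a median of 62.5%, and all entries lie above the line.

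Many predicted entries were highest and lowest in the same cows. N1 had the highest level of 58 of the 67 and N6 the lowest of 60. Of the 67, 13 lay in sets of near copies, so these counts are not of separate cases. The 67 were chosen on reads summed over all 8 cows, so that a high level in N1 alone could bring an entry past 100 RPM. With the limit set on the other 7 cows, an alternative chosen after seeing the data, 60 predicted entries passed, N1 being highest in 51 and N6 lowest in 55. The 5 most abundant predicted entries had other extremes, with none highest in N1 and lowest in N6 at once. In N1, 54 of the 67 were over 2 times their median over the cows, and the median ratio was 2.45, while in N2 it was 1.64 and in N6 0.407. For bovine miRBase entries the median ratio lay between 0.926 (N8) and 1.12 (N5), and the highest level was in N5 for 36 and in N1 for 23 of the 120. RumimiR entries lay between, with the highest level in N1 for 22 and the lowest in N6 for 19 of the 39. A first principal component of log2(RPM + 1), which takes in all 227 entries, held 65.5% of the variance and set N1 (14.4) and N2 (7.77) against N6 (-12.8). The paper lists N1, N2 and N3 as aged 2 years and N6 as aged 3 years, and N3 lay at -0.162. It also reports microRNAs that differ with age in Normande milk, most of them predicted and lower in the older cows. The paper states that these could not be told apart from differences in milk production, which also differed between the ages. The part of age or milk production in this component was not tested.

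This order held under other scalings. With TMM factors of edgeR, N1 was highest for 51 and N6 lowest for 55 of the 67 predicted entries, with size factors of DESeq2 for 50 and 58, and with levels relative to the bovine miRBase reads alone for 61 and 61. Without N1 and N2 the median CV was 43.0% for predicted, 29.8% for RumimiR and 22.1% for bovine miRBase entries. Beside this order, the summed level of 10 epithelial microRNAs was 47484 RPM in N1, 51756 in N2 and 51717 in N6, the lowest values of the 8 cows. The summed level of 8 leukocyte microRNAs was 4856 RPM in N1, 2597 in N2 and 7009 in N6, and totals were 12021549 reads in N1, 6559942 in N2 and 9249399 in N6. The part of these quantities and of age in the order was not tested.

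**Figure D5:**
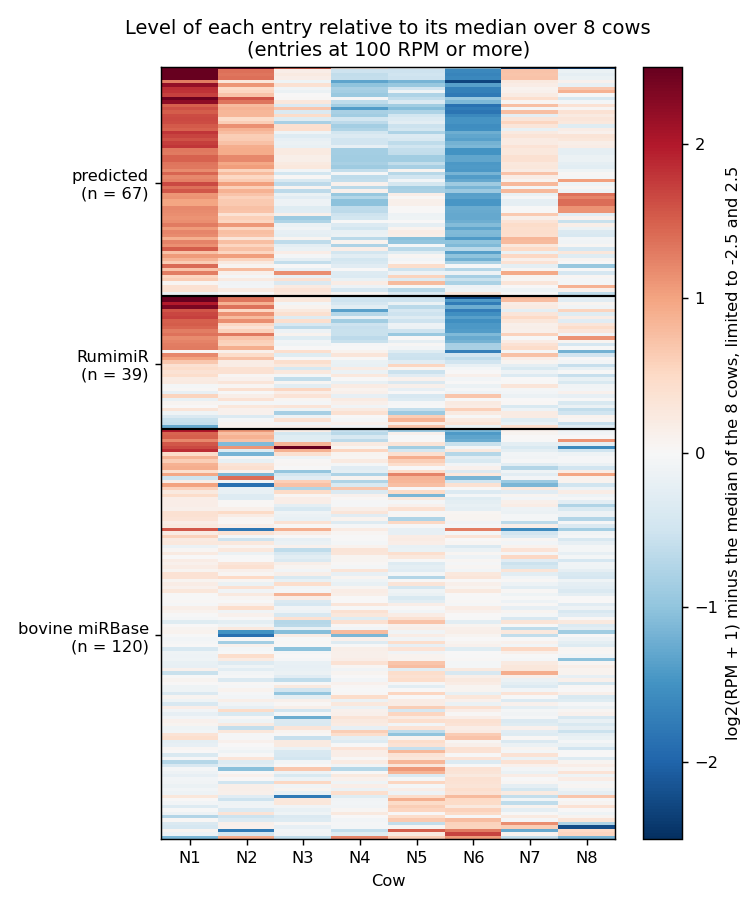
Level of each entry in each Normande cow as log2(RPM + 1) minus the entry's median over the 8 cows (colour, limited to -2.5 and 2.5), for 67 predicted, 39 RumimiR and 120 bovine miRBase entries, sorted within a source by the difference of N1 and N6. N1 and N2 are red and N6 blue over most predicted entries, N1 being highest in 58 and N6 lowest in 60 of them, and over the bovine miRBase entries the highest cow is N5 in 36 and N1 in 23.

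The 10 most even entries were bta-miR-151-3p (CV 5.13%), bta-miR-103-3p (5.95%), bta-miR-22-3p (6.02%), Rum-oar-00262 (9.11%), bta-miR-182-5p, bta-miR-148a-3p and bta-miR-30d-5p (each at 10.1% or less), bta-miR-652-3p (11.3%), bta-miR-99a-5p (11.4%) and Rum-bta-02446 (11.6%). They held 8 bovine miRBase and 2 RumimiR names. bta-miR-151-3p had cow levels of 7375 RPM at the lowest (N8), 8014 at the median and 8652 at the highest (N4). bta-miR-103-3p, known in mice to act on insulin signalling, had 4199 (N3), 4766 and 4992 (N1) RPM. In RPM their whole range was thus under 1.2-fold. TMM factors lay between 0.828 (N6) and 1.17 (N1), so the ranges and the list of most even entries can differ under that scaling.

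The 10 least even entries were led by bta-chr11_4139_mt-3p with a CV of 185%. It had 662 RPM in N1, 222.3 in N2, 56.5 in N3, 21.7 in N4, 16.7 in N5, 9.30 in N6, 2.28 in N7 and 2.88 in N8, and its abundance of 137 RPM rested on N1. The others were Rum-bta-00219-chr15 (113%), bta-miR-486-5p (110%), bta-chr11_4013_mt-3p (107%), bta-chr24_23358_mt-3p (106.1%), bta-chrX_40882_mt-3p (105.8%), Rum-bta-00219-chr3 (105%), bta-chr19_14414_mt-5p (100%), Rum-chi-01698 (98.5%) and bta-chr23_22050_mt-5p (98.1%). bta-miR-486-5p was highest in N3 and the other 9 were highest in N1. bta-chr11_4013_mt-3p and bta-chr24_23358_mt-3p were near copies, and the Rum-bta-00219 entries share 1 catalogue number, so the 10 are not separate cases. Without N1 the median CV of predicted entries was 49.1%.

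Of the 14 bovine miRBase entries with a CV over 50%, 8 were highest in N1, 2 in N5 and 1 each in N2, N3, N4 and N6, and 4 were highest in N1 and lowest in N6, as many predicted entries were. bta-miR-11985-3p had 66.9 RPM at the lowest (N6), 146.5 at the median and 591 at the highest (N1), a CV of 87.6%, and bta-miR-11975-5p (65.4%) and bta-miR-11976-3p (64.0%) had the same cows at the ends. bta-miR-6529a-5p (69.8%) was highest in N1 and lowest in N8. Apart from bta-miR-486-5p, the single entries of this kind were chosen after their values were seen. bta-miR-486-5p, of red blood cells, was highest in N3 with 810 RPM, against 120 at the median and 39.2 at the lowest (N8). bta-miR-223-3p, of the myeloid lineage, had 156 RPM at the lowest (N2), 527 at the median and 1503 at the highest (N5), a CV of 74.2%. bta-miR-222-3p had 35.7 (N2), 130 and 378 (N1) RPM, a CV of 77.2%. bta-miR-378-5p, whose gene lies in an intron of PPARGC1B in mammals, had 1032 (N2), 2244 and 6553 (N1) RPM, a CV of 63.8% and the only one over 50% among the 52 bovine miRBase entries at 1000 RPM or more. bta-miR-1246-5p was highest in N6 with 799 RPM, where 363 RPM was the next level.

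Families were uneven within. The miR-30 family held 19.4% of the reads, 85.1% of it as miR-30a-5p. The family of miR-148 and miR-152 held 20.1%, 99.6% of it as miR-148a-3p, while bta-miR-148b-3p had 706 RPM and bta-miR-152-3p 63.9 RPM. All 9 let-7 entries were at 100 RPM or more, from bta-let-7e-5p at 338 RPM to bta-let-7a-5p, and the family held 4.55%. The miR-200 family held 5.11%, 83.3% of it as miR-141-3p, and bta-miR-200b-3p was its least abundant member at 244 RPM. The miR-26 family held 4.50% and the miR-181 family 3.47%, led by miR-26a-5p (92.2%) and miR-181a-5p (94.0%), and the miR-29 family held 0.325% and the miR-17 family 0.121%.

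Markers of the cell types that milk could hold were set beside the tissue label. Milk contains shed epithelial cells and leukocytes, and in bulk RNA fewer cells of a type and less RNA per cell cannot be told apart. Of 11 epithelial microRNAs 10 were measured, 8 of them at 100 RPM or more, and they summed to 61450 ± 12992 RPM (SD, n = 8), with 47484 at the lowest (N1) and 85938 at the highest (N5). bta-miR-141-3p held 66.0% of the list. The next were bta-miR-375-3p at 6673 RPM, bta-miR-182-5p at 6461 RPM and bta-miR-200a-3p at 4521 RPM, while bta-miR-205-5p, of basal and myoepithelial cells, had 26.3 RPM and bta-miR-96-5p 27.5 RPM.

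Of 9 leukocyte microRNAs 8 were measured, and they summed to 5562 ± 2383 RPM (SD, n = 8), with 2597 at the lowest (N2), 5092 at the median and 10086 at the highest (N5). bta-miR-142-5p, made in all blood cell lineages, held 70.7% of the list, with cow levels of 1715 RPM at the lowest (N2), 3517 at the median and 7482 at the highest (N5). bta-miR-223-3p at 837 RPM followed, then bta-miR-146b-5p at 238 RPM, bta-miR-150-5p, of mature lymphocytes, at 222.3 RPM, and bta-miR-342-3p at 171 RPM. bta-miR-150-5p was highest in N7 with 507 RPM, where miR-223-3p was at 220 RPM, so the leukocyte microRNAs did not share the same order of cows. Red cell microRNAs summed to 910 RPM in N3, 422 in N1, 261.0 in N2 and 40.7 to 125.9 in the other 5 cows, mostly as miR-486-5p (93.4%). bta-miR-451-5p of the same list had 100.3 RPM in N3 and 43.6 in N1. In N2 it had 2.44 RPM, within the 1.17 (N4) to 5.73 (N6) of the other 5 cows. N1, N2 and N3 are the cows that the paper lists as aged 2 years, and the part of age in these sums was not tested.

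MicroRNAs of vessels and stroma summed to 2530 ± 287 RPM (SD, n = 8), and bta-miR-99a-5p, which other cells also make, held 52.0% of them. Next came bta-miR-125b-5p at 694 RPM and bta-miR-143-3p, of smooth muscle and fibroblasts, at 441 RPM. bta-miR-145-5p, of the same transcript as miR-143-3p, had 3.60 RPM, and bta-miR-126-3p, of endothelium, 1.54 RPM. Of the 10 measured, 3 were at 100 RPM or more. Of 4 muscle microRNAs 2 were measured: bta-miR-133a-3p was at 0.559 RPM and bta-miR-133b-3p at 0 reads in all 8 cows. Of 2 neural microRNAs 1 was measured, bta-miR-9-5p at 1.23 RPM, and the liver microRNA on the list was not analysed here. The muscle and neural microRNAs that were measured were thus at or near 0, and the others on these lists, miR-1-3p, miR-206-3p and miR-124-3p, were not analysed here.

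MicroRNAs of 1 genomic cluster are often cut from the same primary transcript. For 18 clusters known in mammals, the genes lay next to each other within 20 kb in the RefSeq annotation of assembly ARS-UCD2.0 in 17, and miR-502 of the last had no gene there. Of 692 bovine miRBase entries 675 matched a RefSeq gene. Members of a cluster were not equally abundant: the highest was over 10-fold the lowest in 12 and over 100-fold in 5 of 17 clusters, with a median ratio of 23.1. In the remaining cluster, of miR-144 and miR-451, there were 2 reads of bta-miR-144-3p and 792 of bta-miR-451-5p.

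The widest ratio was in the miR-17-92 cluster, known for promoting proliferation, with bta-miR-92a-3p at 15117 RPM and bta-miR-18a-5p at 6.29 RPM, 2405-fold apart. Between them lay bta-miR-19b-3p at 786, bta-miR-17-5p at 132, bta-miR-20a-5p at 93.8 and bta-miR-19a-3p at 73.5 RPM. In the miR-532 to miR-660 cluster, miR-660-5p was 974-fold above bta-miR-188-5p (9.83 RPM). In the cluster of miR-183, miR-96 and miR-182, miR-182-5p was 235-fold above miR-96-5p, and in that of miR-23b, miR-27b and miR-24, miR-27b-3p was 182.9-fold above bta-miR-24-3p (187 RPM). The narrowest were miR-221 and miR-222 at 1.71-fold, miR-30d and miR-30b at 3.47-fold, and miR-30e and miR-30c at 3.48-fold. miR-92a-3p, miR-24-3p and some other members also have genes at another place, whose reads the counts do not separate.

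The composition of Normande milk was set beside that of Holstein milk. Of 7 measures per library, 0 (0%) passed the two-sided exact permutation test over all 24310 divisions of the 17 cows after Benjamini-Hochberg adjustment, and 1 had an unadjusted p under 0.05. Predicted entries held 7.66% ± 2.98 in Normande and 7.53% ± 3.02 in Holstein milk (SD, n = 8 and 9, exact permutation p = 0.883, adjusted p = 0.883). RumimiR entries held 2.40% ± 0.554 in Normande and 2.09% ± 0.321 in Holstein milk (exact permutation p = 0.174, adjusted p = 0.609). Bovine miRBase entries held 89.9% ± 3.50 in Normande and 90.3% ± 3.27 in Holstein milk (exact permutation p = 0.767, adjusted p = 0.883). These differences were smaller than the SD between cows of each breed.

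The measure with the lowest p was the share of entries of other species, 0.0283% ± 0.00546 in Normande and 0.0354% ± 0.00816 in Holstein milk (exact permutation p = 0.0446, adjusted p = 0.312), and 2 of 8 Normande cows lay above the Holstein median. The 10 leading entries held 69.2% ± 3.55 in Normande and 68.7% ± 2.77 in Holstein milk (exact permutation p = 0.713, adjusted p = 0.883). The effective number of microRNAs, the exponential of the Shannon entropy of the shares, was 29.3 ± 4.33 in Normande and 27.7 ± 3.73 in Holstein milk (exact permutation p = 0.437, adjusted p = 0.883). The 5p share of bovine miRBase reads was 51.1% ± 2.34 in Normande and 51.7% ± 2.34 in Holstein milk (exact permutation p = 0.644, adjusted p = 0.883). A p above the threshold does not show that the breeds are alike in these measures.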

How the data were processed

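Small RNA of whole milk was sequenced in 17 libraries, 8 of Normande and 9 of Holstein cows. The authors deposited raw read counts for each mature microRNA. Per the labels and the methods, the authors demultiplexed the reads with bcl2fastq 2.17.1.14, kept 17 to 28 nt reads with cutadapt and counted them with the miRDeep2 quantifier against bosTau8 and miRBase, removing redundancy between entries and adding RumimiR names, with no normalization. Molecular identifiers are not mentioned, so intervals cover counting error only. A second sheet without measurements was not used.

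Counts were divided by the library total (RPM). Entries were grouped by their names, and 13 repeated names (27 entries) were kept apart. Shares, ranks, CV and arm ratios were computed in Python 3.11.15 (numpy 2.4.6, pandas 2.3.3, scipy 1.17.1, matplotlib 3.10.9). Arm ratios used a pseudocount of 0.5. R 4.3.3 with edgeR 4.0.16 and DESeq2 1.42.0 gave other scalings. Of the values computed in R, only the biological CV of edgeR was tested on simulated data. Near copies were entries with at least 100 reads within 5% or a difference of 2 reads or fewer in every Normande library. Breeds were compared by exact permutation over cows, so p-values measure the spread between cows. The paper names an age per cow and the labels do not, so age entered no computation.

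MicroRNAs named are those at 10000 RPM or more, the 5 leading entries of the other sources, the arm pairs and CV values at the extremes, and the fixed marker, family and cluster lists. bta-miR-222-3p, bta-miR-223-3p, bta-miR-6529a-5p, bta-miR-11975-5p, bta-miR-11976-3p, bta-miR-11985-3p, bta-miR-378-5p, bta-miR-1246-5p, mmu-miR-182-3p, bta-miR-425 and the predicted pairs were added after their values were seen. The members and lists were chosen with earlier results of these data known. Alternatives were the mean or median RPM, detection limits, thinning, filters, scalings, leaving out each cow or N1 and N2 together, the replicate block and, chosen after seeing the data, near copies counted once, the 100 RPM limit set without N1, and the source shares without N1 and N2.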

Additional observations from a re-analysis of the deposited data

Results flagged for a closer look

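Among 83 sets of 8 cow values examined (the composition measures, list sums, arm ratios and levels of named microRNAs), 17 had a cow far from the others, with a gap to the nearest cow that was a large part of the whole range. Chance gives about 1 such set in 20 where sets are not chosen on their values, but 9 of the 17 were among the 10 least even entries, which were chosen for a high CV, and the sets are not independent, so 17 of 83 cannot be read against that share. N1 was the cow in 11 of the 17, N5 in 3, N3 in 2 and N7 in 1.

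In N1 the 10 leading entries held 61.2% of the reads, with 67.0% in the next cow (gap over range 0.549), and the effective number of microRNAs was 39.1, with 31.8 in the next cow (0.580). The other 9 flags of N1 were high levels of entries outside bovine miRBase. bta-chr20_18762_mt-3p had 22768 RPM, with 11503 in the next cow (0.613). bta-chr11_4139_mt-3p had 662 RPM, with 222.3 in the next cow (0.667). The gap over range was 0.630 for Rum-bta-00219-chr15, 0.611 for Rum-bta-00219-chr3, 0.602 for bta-chr11_4013_mt-3p, 0.595 for its near copy bta-chr24_23358_mt-3p, 0.601 for bta-chrX_40882_mt-3p, 0.544 for Rum-chi-01698 and 0.580 for bta-chr23_22050_mt-5p.

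In N5 bta-miR-148a-3p was low at 162045 RPM, with 210338 in the next cow (0.646), and with it the sum of the miR-148 and miR-152 family at 163028 RPM (0.641). bta-miR-21-5p was high in N5 at 49948 RPM, with 37230 in the next cow (0.540). In N3, the shallowest library, bta-miR-486-5p was high at 810 RPM, with 378 in the next cow (0.560), and so was the sum of the red cell microRNAs at 910 RPM (0.562). In N7 the log2 ratio of 5p over 3p of bta-miR-2419 was 12.34, with 9.91 in the next cow (0.563). Its 3p arm had 0 reads in N7, so that value depends on the 0.5 added to each count.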

How the results depend on the processing

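Of 286 values recomputed under the alternatives, 280 were classed as the same (on their side or within the spread) and 6 as moved. Many of the 286 were adjusted p-values of the 7 composition measures, which gave no call under any alternative. The 280 therefore say little of how steady the other results are. With the median of the library RPM values, 1059 entries lay below 100 RPM, as entries with a median of 0 drop out. Entries at 10 RPM or more put the share of other species at 0.0228%. A minimum of 10 reads gave 30 arm pairs with 5p ahead, as more pairs are counted. The median CV was 41.7% as the biological CV of edgeR (the cause was not tested), 19.4% over entries at 1000 RPM or more and 35.6% over entries at 10 RPM or more, as other entries are counted. Leaving out 1 cow each time gave 15 to 18 major microRNAs, 1948 to 2026 detected entries, median CVs of 28.5% to 32.9% and predicted shares of 6.77% to 8.07%. Detected entries numbered 1443 with at least 10 reads and 1553 after thinning, against 2030. Entries below 100 RPM numbered 1473 with equal counts counted once, against 1803. These lower numbers were classed as the same.

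Cow numbers did not pair the breeds: of 8 pairs of equal number, 3 correlated best with their own number. With the numbers as a replicate block, exact sign-flip tests gave adjusted p = 0.711 for the shares of RumimiR and of other species and 0.889 to 0.977 for the other measures, and no call changed. Over all alternatives, adjusted p for the share of other species lay between 0.133 and 0.711 (exact permutation tests).

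Depth limits what can be said of rare entries, since 1253 lay below 1 RPM and a count of 0 in N3 allows 3.46 RPM. With 8 cows, 1 library can decide single values, as N1 does for bta-chr20_18762_mt-3p.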
